A study of Mus musculus with 2 samples.

Results

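The carbonic anhydrase genes described here are *Car2*, *Car3*, *Car4*, *Car5b*, *Car6*, *Car8*, *Car9*, *Car12*, *Car13* and *Car14*, which are 10 of the 16 genes of this family on the array and were picked out by name in its probe annotation, out of 30133 genes on it. The 10 genes are carried by 12 of its 39429 probes, and the other 6 are given as a list of their own. Newborn skin at postnatal day 0 was compared between *Pnpla1*+/+ and *Pnpla1*-/- mice, to ask which genes differ when the lipid acyltransferase PNPLA1 of the skin barrier is lost. Both groups were C57BL/6N. The *Pnpla1*-/- mice were homozygous for a knockout-first allele from which flippase had removed the reporter and selection cassettes, in every cell of the body, and the *Pnpla1*+/+ mice were littermates from the same heterozygous intercrosses. RNA of 6 animals was pooled for each genotype and hybridized with 1 dye, Cy3, to 1 Agilent mouse array each, so there are no replicates, no p-value and no spread between mice, and each value describes these 2 pools.

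Each array held 43020 spots other than controls, of which 71.7% in *Pnpla1*+/+ and 73.3% in *Pnpla1*-/- skin were well above background, and 0 were saturated. Intensities are given as deposited, in arbitrary units, with the error that the scanner software gives for a single spot. A difference is log2 of the *Pnpla1*-/- over the *Pnpla1*+/+ intensity after each was divided by the 75th percentile of its array, 2108 in *Pnpla1*+/+ and 1734 in *Pnpla1*-/- skin. Repeated spots of a probe gave a technical SD of 0.08 for such a difference, but each carbonic anhydrase probe had 1 spot. A gene is said to have risen or fallen only where its difference was at least 2-fold, a log2 difference of 1. The genes were chosen with this contrast in view, so that their values are a description.

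*Pnpla1* itself, on chromosome 17, gave 579 intensity units in *Pnpla1*+/+ and 114 in *Pnpla1*-/- skin. It fell by 2.07 on the log2 scale, and the *Pnpla1*-/- signal remained above the background limit. Its probe lies at position 4137 of the transcript. The paper reports that *Pnpla1*-/- skin lacked the mRNA by qPCR and the protein by immunohistochemistry. The source of the remaining array signal was not tested. The epidermal keratin *Krt10* had 277989 in *Pnpla1*+/+ and 262540 in *Pnpla1*-/- skin, a difference of 0.20 that turned to −0.23 with spike-in centring.

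Carbonic anhydrases catalyse the reversible hydration of carbon dioxide to bicarbonate and a proton. The mammalian enzymes are grouped by where they act: CAR2, CAR3 and CAR13 in the cytosol, CAR5B in mitochondria, CAR4, CAR9, CAR12 and CAR14 at the cell surface, and CAR6 as a secreted enzyme. CAR8 has a carbonic anhydrase fold but no catalytic activity. Bicarbonate and protons made by these enzymes are moved across membranes by exchangers of the SLC4, SLC26 and SLC9 families, and surface carbonic anhydrases are known to assist the export of lactate with protons.

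Of the 10 genes, 9 had a difference, and the remaining gene, *Car8*, was too dim on both arrays. *Car6* fell and *Car13* rose, while the other 7 measured genes lay within 2-fold. Over the whole array, 6.7% of the 22374 genes with a difference rose and 3.04% fell, so that 9.74% changed in either direction, and the rule that chose the carbonic anhydrases used the same contrast, so nothing is read from their count. Their differences ranged from −3.65 to 1.20, with 6 above 0 and 3 below 0. Their median was 0.34, beside 0.00264 for all genes, and it was −0.10 when the arrays were centred on spike-in RNA instead, which lowers each measured difference by 0.43 and takes rises close to the threshold under 2-fold. Beyond the technical SD of repeated spots, which holds no spread between mice, 6 genes were above and 2 below 0, and 1, *Car4*, lay within it. Of the 6, *Car14* had a difference smaller than the scanner error of its own spot.

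**Figure D1:**
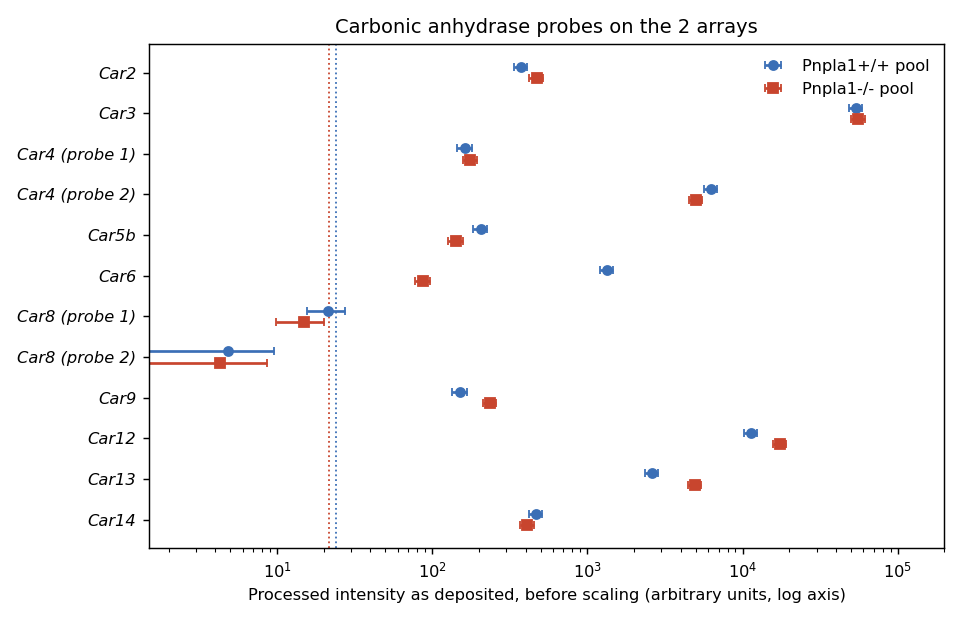
Deposited intensity (arbitrary units, log axis) of each carbonic anhydrase probe in the *Pnpla1*+/+ pool (blue circles) and the *Pnpla1*-/- pool (red squares), with the scanner software's error of the single spot as bars. Dotted lines mark the lowest intensity that was well above background on each array, 23.9 and 21.7. Intensities are before scaling between arrays, and levels of different probes cannot be set against each other. For *Car4*, probe 1 lies at position 470 and probe 2 at position 1230 of the transcript. The points of *Car6* lie farthest apart, and both probes of *Car8* lie below the lines.

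*Car6* encodes the secreted carbonic anhydrase, best known from saliva. Its probe lies on the minus strand of chromosome 4 of mm9, chr4:149561160-149561219, at position 1274 of the transcript. The first 30 of its 60 bases are shown because the largest difference of the family rests on this single probe.

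Car6 probe: gccgaaaaaagaaaaccattcaccttgatc

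The *Car6* probe gave 1335 ± 134 in *Pnpla1*+/+ skin and 87.3 ± 10 in *Pnpla1*-/- skin (scanner error of 1 spot). The *Pnpla1*-/- value was still above the lowest intensity that counted as well above background on that array, 21.7. *Car6* fell by 3.65 on the log2 scale, which is 12.6-fold, with a scanner error of 0.22 for the difference. It ranked 14 from the lowest of 22374 genes, where genes well above background in 1 pool only were placed at a bound. The rank is thus not exact. Over 12 other ways of processing the arrays the *Car6* difference stayed between −4.08 and −2.95. In bulk skin, fewer cells of a type and less RNA per cell cannot be told apart.

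Markers of other cell types moved in the same samples, and their counts stand beside 6.7% of all genes that rose and 3.04% that fell. Of 12 hair follicle markers, 7 fell and 0 rose, and 11 of the 12 were below 0. Their median was −1.01, and ranged from −1.44 with spike-in centring to −0.92 with normexp background correction. Some calls lay near the threshold. *Hoxc13* and *Shh*, at −1.01 and −1.10, were at −0.91 and −0.87 with normexp, and *Lef1*, at −1.01, was at −0.99 with cyclic loess. With spike-in centring *Krt25*, *Krt71* and *Msx2* were past 2-fold as well. The intensities of the 12 markers summed to 217408 in *Pnpla1*+/+ and 95740 in *Pnpla1*-/- skin before scaling. After scaling the log2 difference was −0.90, and none of the markers was at background. Such a sum is led by the brightest probes and is no measure of the list as a whole. The brightest, *Krt71*, a keratin of the inner root sheath, had 84119 and 39193, a difference of −0.82. The marker with the largest difference, *Krt33b*, a hair keratin, had 1850 and 505, and fell by 1.59. The difference of *Car6* was larger than that of each of these markers, and their part in it was not tested. Of 9 markers of secretory glands, 4 had a difference, 1 rose and 1 fell. The salivary genes *Prol1*, *Smr3a*, *Bpifa2*, *Smgc* and *Dcpp1* were not well above background on any array. The brightest of these 9 in *Pnpla1*+/+ skin was *Amy1*, salivary amylase, with 202 and 154, a difference of −0.11. The gene that fell was *Aqp5*, a water channel of gland cells, which had 102 and 34.0 and fell by 1.30, with −0.46 under normexp background correction. Its other probe, above the background limit in *Pnpla1*+/+ skin alone, had a bound of −2.60. The summed intensity of the list, 540 in *Pnpla1*+/+ and 7079 in *Pnpla1*-/- skin, a difference of 3.99 after scaling, was carried by *Lpo*, lactoperoxidase, which had 161 and 6792 and rose by 5.68. In the sebaceous gland list, 0 of 8 markers rose or fell, and the median was 0.10, which turned to −0.34 with spike-in centring. The brightest sebaceous marker, *Krt79*, also had the largest difference, −0.78, from 109522 to 52629, and took the summed intensity of the list from 111630 to 54679, a difference of −0.75 after scaling.

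The genes whose difference lay closest to that of *Car6* were *Cfap57*, a gene of motile cilia, with −3.54, *Krt72*, a keratin of the inner root sheath, with −3.41, and *Krtap3-2*, a hair keratin-associated protein, with −4.08. Likeness was measured as the gap between single differences, over these 2 pools only.

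*Car13*, a cytosolic enzyme, was the only one of the 10 genes that rose. Its probe lies on chromosome 3, chr3:14662332-14662391 of mm9, on the plus strand. The intensity of *Car13* was 2609 ± 261 in *Pnpla1*+/+ skin and 4940 ± 494 in *Pnpla1*-/- skin (scanner error of 1 spot). *Car13* rose by 1.20, or 2.30-fold, with a scanner error of 0.20 for the difference. It ranked 1112 from the highest of 22374 genes, a rank that is not exact because some genes have only a bound. The *Car13* difference stayed above 0 under all 12 other ways of processing, from 0.77 with spike-in centring to 1.27 with cyclic loess. It was under 2-fold with spike-in centring and without scaling. The genes with the nearest differences were *Vegfa*, a vascular growth factor, *Slit1*, a guidance ligand, and *Clec1a*, a lectin-like receptor, with 1.20, 1.20 and 1.21.

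*Car2* and *Car3* encode the other cytosolic enzymes among the 10 genes. CAR2 is a fast and widespread form known from red blood cells, kidney and bone, and CAR3 is a slow form known for its abundance in skeletal muscle and fat. The *Car2* probe, chr3:14900206-14900265, had 373 ± 37.9 in *Pnpla1*+/+ and 471 ± 47.4 in *Pnpla1*-/- skin. The *Car2* difference was 0.62, under 2-fold, and ranged from 0.19 with spike-in centring to 0.69. The *Car3* probe, chr3:14871781-14871840, had 53754 ± 5375 in *Pnpla1*+/+ and 55805 ± 5581 in *Pnpla1*-/- skin. The unscaled *Car3* intensities lay within their scanner errors of each other. The *Car3* difference after scaling was 0.34, which turned to −0.10 with spike-in centring, so its direction depended on the scaling.

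The cell types in which these enzymes are well known were represented as follows, beside 6.7% of all genes that rose and 3.04% that fell. Of 6 red blood cell markers with a difference, 1 rose and 0 fell, with a median of 0.73 that stayed above 0 under each alternative. The brightest of them, *Hba-a1*, an alpha globin, had 81424 in *Pnpla1*+/+ and 118798 in *Pnpla1*-/- skin, a difference of 0.83. *Alas2*, the first enzyme of haem synthesis in red cells, had 1478 and 3031, and rose by 1.32. The intensities of the list summed to 84479 and 123545, a difference of 0.83 after scaling. *Klf1*, *Epb42* and *Rhag* were at background in both pools. Of 11 skeletal muscle markers, 1 rose and 0 fell, with a median of 0.25, which turned to −0.18 with spike-in centring, and a summed intensity of 647169 and 598646, a difference of 0.17 after scaling. *Tnnc2*, the brightest muscle marker, had 181746 and 157530, a difference of 0.08, and *Myh7*, slow myosin, had 922 and 2476 and rose by 1.71. Of 7 adipocyte markers with a difference, 1 rose and 0 fell, with a median of 0.10, which turned to −0.33 with spike-in centring, and a summed intensity of 199890 and 207191, a difference of 0.33 after scaling. *Fabp4*, the brightest, had 89342 and 78651, a difference of 0.10, *Cidea*, a lipid droplet protein, rose by 1.61, and *Lep* was not well above background. The part of these cells in the values of *Car2*, *Car3* and *Car13* was not tested.

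Among the surface enzymes, *Car9* and *Car12*, which encode transmembrane enzymes with their active site outside the cell, both lay just under 2-fold. CAR9 is known as a target of the hypoxia-inducible factors, and both enzymes are known from tumours. The *Car9* probe, chr4:43526518-43526577, had 150.4 ± 16.1 in *Pnpla1*+/+ skin and 235 ± 24.1 in *Pnpla1*-/- skin. The *Car9* difference was 0.93, or 1.90-fold, with a scanner error of 0.21. The *Car12* probe, chr9:66614542-66614601, had 11271 ± 1127 and 17398 ± 1740. The *Car12* difference was 0.91, or 1.88-fold, with a scanner error of 0.20. Across the alternatives *Car9* ranged from 0.50 to 0.93 and *Car12* from 0.48 to 0.91, in both cases lowest with spike-in centring. Before scaling, too, both genes were brighter in *Pnpla1*-/- skin, by more than the scanner errors of the spots.

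*Car4* encodes an enzyme tethered to the membrane by a lipid anchor, and is the only measured gene of the 10 with a pair of probes. The brighter one, at position 1230 of the transcript on chromosome 11, chr11:84779487-84779546, had 6257 ± 626 in *Pnpla1*+/+ and 4994 ± 499 in *Pnpla1*-/- skin, a difference of −0.04. The other, at position 470, chr11:84777667-84777726, had 162 ± 17.2 and 175 ± 18.3, a difference of 0.39. The probes thus gave opposite signs, and the mean over both was 0.18. They are shown because they sit at different places of the transcript. The brighter one holds AATAAA, the letters of a polyadenylation signal, set in capitals within its bases 20 to 49, and of the other the first 30 bases are given.

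Car4 probe at position 1230: ccaattaaatgaAATAAAatatggatatgt

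Car4 probe at position 470: tgcacctgcactggtcaaatgggaatgaca

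*Car14*, the remaining transmembrane enzyme, had 465 ± 46.8 in *Pnpla1*+/+ and 409 ± 41.1 in *Pnpla1*-/- skin at chr3:95701859-95701918. The *Car14* difference was 0.10, smaller than its scanner error of 0.21, and it turned to −0.34 with spike-in centring and below 0 without scaling as well.

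*Car5b*, the mitochondrial enzyme, is the only X-linked gene among the 10. Its probe, chrX:160416946-160417005, had 205 ± 21.5 in *Pnpla1*+/+ and 142 ± 15.4 in *Pnpla1*-/- skin. The *Car5b* difference was −0.25, beside a scanner error of 0.22, and stayed below 0 under the alternatives, from −0.68 to −0.11. Sex-linked genes differed between the pools. *Xist*, expressed from the inactive X chromosome, had 853 in *Pnpla1*+/+ and 1528 in *Pnpla1*-/- skin and rose by 1.12, while the Y-linked *Ddx3y*, with 1863 and 336, and *Eif2s3y* both fell by 2.19. The 638 X-linked genes with a difference had a median of −0.06. The share of each sex in the pools is not given by the labels, and its part in the value of *Car5b* was not tested.

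*Car8* had a pair of probes on chromosome 4. The first, chr4:8070545-8070604, had 21.4 ± 5.86 and 15 ± 5.1, and the second, chr4:8068657-8068716, had 4.81 ± 4.8 and 4.29 ± 4.27. Both probes lay below the limit of well above background in both pools, so that no difference is given for *Car8*.

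**Figure D2:**
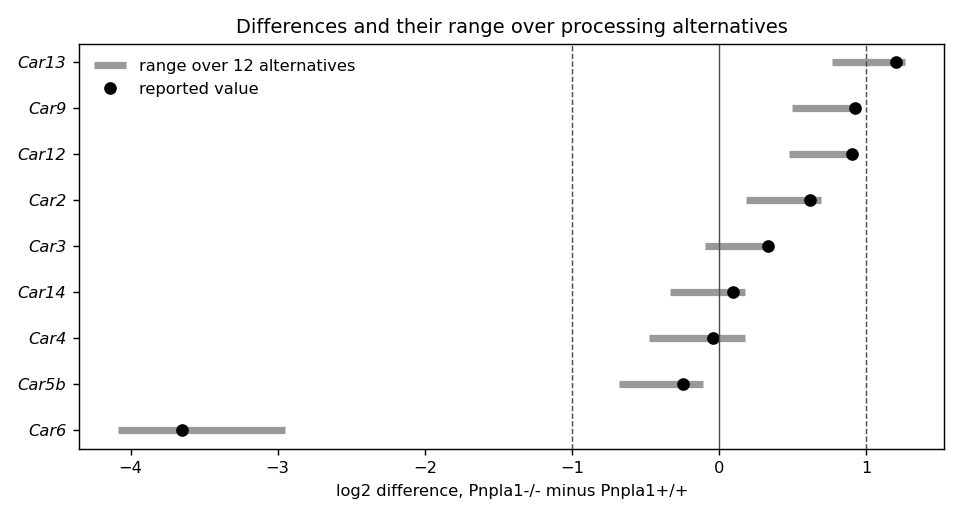
Log2 difference, *Pnpla1*-/- minus *Pnpla1*+/+, of the 9 carbonic anhydrase genes with a difference. Black dots are the reported values and grey bars span the lowest and highest value over 12 alternative ways of processing, which is not an error between mice. Dashed lines mark 2-fold. The *Car6* bar lies wholly below −2.95, the bars of *Car2*, *Car9*, *Car12* and *Car13* lie wholly above 0, and those of *Car3*, *Car4* and *Car14* cross 0.

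Runs of 15 bases shared with probes of other genes were looked for, for the 7 probes of *Car4*, *Car5b*, *Car6*, *Car9*, *Car12* and *Car14*. Transcript sequence outside the probes was not searched, so the absence of a shared run does not show that a probe is specific. The *Car6* and *Car9* probes shared no such run. The *Car12* probe shared a run with 3 probes of other genes, of which *Dyrk1b* and *Gtf3c5* were measured, with differences of −0.13 and −0.40. The *Car4* probe at position 1230 shared a run with a probe of *Atad2b*, which had a difference of −0.21.

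*Car13*, *Car1*, *Car3* and *Car2* follow one another in this order on chromosome 3, with unmeasured genes in between, and their differences were 1.20, 0.63, 0.34 and 0.62. The next measured genes on the *Car13* side were *Rbis*, a ribosome biogenesis factor, with −0.003, *E2f5*, an E2F transcription factor, with −0.21, and *Lrrcc1*, a centrosomal protein, with −0.39. On the *Car2* side, *A930001A20Rik* was not well above background. All 4 carbonic anhydrase genes of the cluster were above 0, although *Car3* turned below 0 with spike-in centring. The 3 measured neighbours were below 0, *Rbis* by less than the technical SD. *Car13*, *Car3* and *Car2* were chosen with this contrast in view, so nothing is read from this arrangement. The 873 genes of chromosome 3 with a difference had a median of −0.04.

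**Figure D3:**
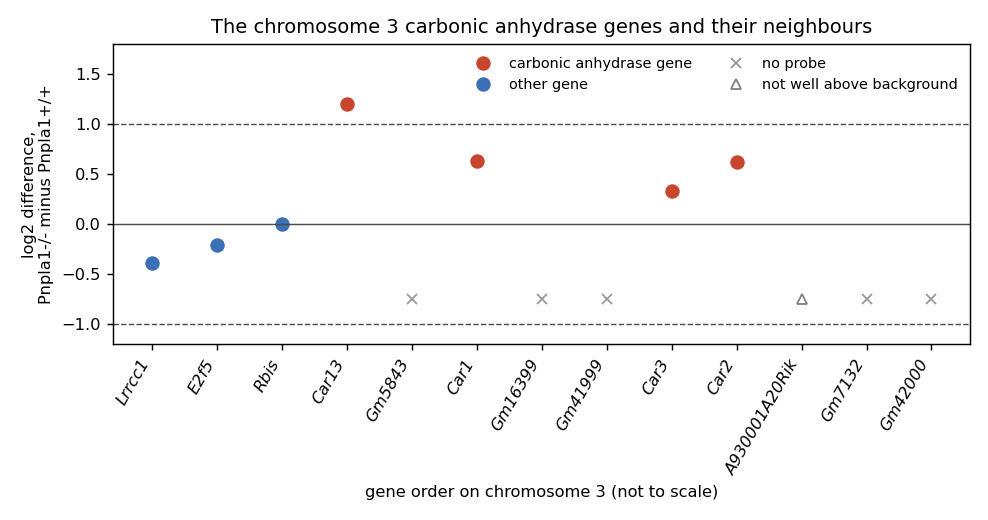
Log2 difference, *Pnpla1*-/- minus *Pnpla1*+/+ (vertical axis), of genes in their order along chromosome 3 (horizontal axis, not to scale), with carbonic anhydrase genes in red and other genes in blue. Crosses are genes without a probe and the triangle a gene not well above background, both placed at an arbitrary height. Dashed lines mark 2-fold. The red points lie between 0.34 and 1.20, and the blue points at or below 0.

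Around all 10 genes, 52 other genes lie within 3 places on either side, of which 28 had a difference. None rose and 1 fell, beside 6.7% and 3.04% of all genes, with a median of −0.03. Nothing is read from this count. The family gene *Car1*, with 0.63, is among the 28. The gene that fell, *8430436N08Rik*, a non-coding RNA near *Car8*, passed the background limit in *Pnpla1*+/+ skin alone and fell by at least 1.24. Next to *Car6*, *Eno1*, the glycolytic enzyme enolase, had 67036 in *Pnpla1*+/+ and 87475 in *Pnpla1*-/- skin, a difference of 0.67, and *Rere*, a nuclear corepressor further on the same side, had −0.20. On the other side *Slc2a5*, a fructose transporter, had 497 and 237, a difference of −0.79. Next to *Car9*, *Tpm2*, a tropomyosin, and *Arhgef39*, an exchange factor for small GTPases, had 0.18 and −0.43. Next to *Car12*, *Aph1b*, a gamma-secretase subunit, and *Usp3*, a deubiquitinase, had −0.78 and 0.42. Next to *Car5b*, *Siah1b*, a ubiquitin ligase, and *Zrsr2*, a splicing factor, had −0.34 and −0.04.

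RefSeq start-site windows of the assembly GRCm38.p6, from 250 bases before to 50 bases after the start, were at hand for 6 of the 10 genes. They were searched on both strands for ACGTG, a form of the core letters to which hypoxia-inducible factors bind. TGANTCA, the letters of an AP-1 site, was searched for as well. Other forms of these sites were not searched for. ACGTG was found in the windows of *Car9*, *Car6*, *Car14* and *Car4* and not in those of *Car12* and *Car5b*, and it is held by 19.6% of all 32851 windows. TGANTCA was found in the *Car9* window only, beside 7.81% of all windows. The windows of *Car6*, the gene that fell, and *Car9*, a known hypoxia target, are shown with ACGTG, on either strand, in capitals. In *Car6* the capitals read CACGTG, in which ACGTG is read on both strands.

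Car6 window, chr4:150201086-150201385, minus strand: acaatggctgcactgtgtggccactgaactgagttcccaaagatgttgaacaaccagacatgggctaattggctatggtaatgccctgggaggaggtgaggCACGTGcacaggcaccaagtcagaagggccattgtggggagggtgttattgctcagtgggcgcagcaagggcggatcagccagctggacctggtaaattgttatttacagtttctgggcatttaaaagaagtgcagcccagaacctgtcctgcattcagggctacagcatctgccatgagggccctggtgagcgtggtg

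Car9 window, chr4:43506776-43507075, plus strand: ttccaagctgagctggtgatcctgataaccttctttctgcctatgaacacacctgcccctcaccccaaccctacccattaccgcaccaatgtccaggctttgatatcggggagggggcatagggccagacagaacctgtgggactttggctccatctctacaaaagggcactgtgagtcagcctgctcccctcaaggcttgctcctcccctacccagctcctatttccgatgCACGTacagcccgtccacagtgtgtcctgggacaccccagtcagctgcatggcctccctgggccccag

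Such a match is a description of the letters and not a measured site.

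The other genes of the family on the array were *Car1*, *Car5a*, *Car7*, *Car10*, *Car11* and *Car15*. Of these 6 genes, 5 had a difference and none was past 2-fold, with a median of 0.37 that turned to −0.06 with spike-in centring. *Car1*, the abundant cytosolic form of red blood cells, had 167 in *Pnpla1*+/+ and 213 in *Pnpla1*-/- skin, a difference of 0.63, while its second probe was not well above background. *Car7*, another cytosolic form, had 428 and 453, a difference of 0.37, which turned to −0.06 with spike-in centring. *Car10* and *Car11*, related proteins without enzyme activity, had 0.48 and −0.31. The *Car10* probe was dim, with 37.2 in *Pnpla1*+/+ and 42.7 in *Pnpla1*-/- skin, and the *Car10* difference ranged from 0.05 to 1.01 over the alternatives. A second *Car10* probe, well above background in *Pnpla1*-/- skin only, was at least 1.53 higher there, and its remaining probes were not well above background. *Car15*, a membrane-anchored form, had −0.05, and 0.05 with cyclic loess. *Car5a*, the mitochondrial form of liver, was not well above background. Over all 16 family genes, 14 had a difference, 1 rose and 1 fell, beside 6.7% and 3.04% of all genes. Nothing is read from this count. The family median was 0.35, less than the 0.43 by which spike-in centring lowers each measured difference. The receptor phosphatases *Ptprz1* and *Ptprg* carry a carbonic anhydrase-like domain outside the cell. *Ptprz1* had 4006 and 5848, a difference of 0.83, and *Ptprg* had 559 and 552, a difference of 0.26 that turned below 0 without scaling and with spike-in centring.

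The carriers of the products of these enzymes are given list by list, beside the 9.74% of all genes that changed. Of 10 SLC4 bicarbonate transporters, 9 had a difference, 1 rose and 1 fell, with a median of 0.20 that turned to −0.23 with spike-in centring and was below 0 without scaling. *Slc4a1*, the anion exchanger of red blood cells, had 183 in *Pnpla1*+/+ and 324 in *Pnpla1*-/- skin and rose by 1.11. *Slc4a9* had 683 and 139 and fell by 2.02 at its brighter probe, while its other probe gave −0.35, and with normexp background correction the gene was at −0.28. *Slc4a8*, a sodium-driven exchanger, had 66.4 and 102, a difference of 0.90, and *Slc4a5*, a sodium bicarbonate cotransporter, had 40.5 and 56.0, a difference of 0.75. *Slc4a11*, the brightest of the list in *Pnpla1*+/+ skin, had 2071 and 2704, a difference of 0.67. Of 11 SLC26 anion exchangers, 9 had a difference, 1 rose and 0 fell, with a median of 0.18 that turned to −0.25 with spike-in centring and was below 0 without scaling. *Slc26a9*, an epithelial chloride channel and transporter, had 319 and 963 and rose by 1.88. *Slc26a1*, a sulfate transporter, had 165 and 76.2, a difference of −0.84, and −0.36 with normexp background correction. *Slc26a4*, the exchanger pendrin, was well above background in *Pnpla1*-/- skin only, at least 0.92 higher there, and *Slc26a3*, an intestinal exchanger, in *Pnpla1*+/+ skin only, at least 0.91 on the log2 scale above *Pnpla1*-/- skin. With normexp these dim genes, *Slc26a4* and *Slc26a3*, were at 0.45 and −0.04. *Slc26a11*, the brightest of the list, had 1047 and 978, a difference of 0.18 that turned below 0 without scaling and with spike-in centring.

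Of 9 sodium-proton exchangers, 6 had a difference and none was past 2-fold, with a median of 0.37 that turned to −0.06 with spike-in centring. *Slc9a9*, an exchanger of endosomes, had a difference of 0.88, and *Slc9a2* had 215 in *Pnpla1*+/+ and 131 in *Pnpla1*-/- skin, a difference of −0.44. Of 6 genes for lactate transport with protons, 2 rose and 1 fell, with a median of 0.85 that ranged from 0.42 to 0.85 over the alternatives. *Emb*, a glycoprotein that accompanies these transporters to the membrane, had 1612 and 3335 and rose by 1.33. *Slc16a1*, a lactate transporter, had 115 and 211 and rose by 1.16. *Slc16a3*, the form known for lactate export and the brightest of the list, had 7370 and 12094, a difference of 0.996, just under the threshold. *Slc16a7*, a further lactate and pyruvate transporter, had 1645 and 596 and fell by 1.18, but its other 2 probes measured on both arrays gave −1.15 and −0.08.

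Hypoxia response genes, known targets of the same factors as *Car9*, were mostly above 0. All 18 had a difference, 7 rose and 0 fell, beside 6.7% and 3.04% of all genes. Their median was 0.75, and ranged from 0.32 with spike-in centring to 0.83. *Egln3*, an oxygen-sensing prolyl hydroxylase, had 4390 in *Pnpla1*+/+ and 21244 in *Pnpla1*-/- skin and rose by 2.56, with 2.73 at its other probe. *Pfkfb3*, a regulator of glycolysis, had 1574 and 4399 and rose by 1.76, with 1.40 at its other probe. *Slc2a1*, the glucose transporter GLUT1, had 13494 and 31928 and rose by 1.52, and *Hk2*, a hexokinase, had 3172 and 7303 and rose by 1.49. *Aldoa*, an aldolase and the brightest gene of the list, had 191979 and 209375, a difference of 0.41, which turned to −0.02 with spike-in centring.

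**Figure D4:**
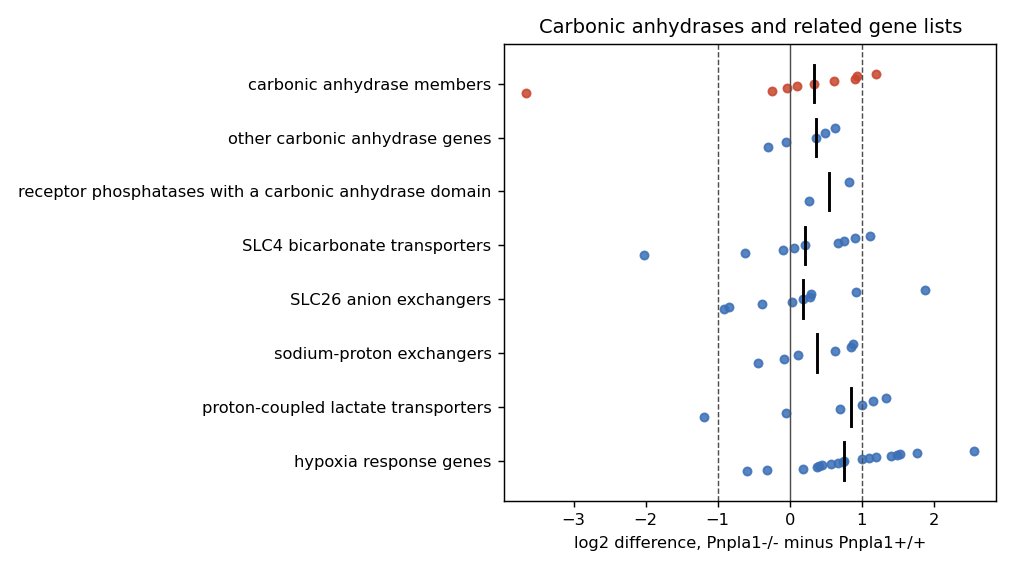
Log2 difference, *Pnpla1*-/- minus *Pnpla1*+/+ (horizontal axis), of each gene with a difference in the carbonic anhydrases described here (red) and in the lists of related genes (blue). Short black lines are medians, dashed lines mark 2-fold, and the vertical offset of points carries no value. *Car6* at −3.65 is the leftmost point, and the medians of the hypoxia and lactate lists, 0.75 and 0.85, lie farthest to the right.

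Other cell type markers moved as follows, beside 6.7% of all genes that rose and 3.04% that fell. The part of these markers in the carbonic anhydrase values was not tested. Of 6 keratinocyte markers, 1 rose and 1 fell, with a median of 0.15 that turned below 0 with cyclic loess, quantile normalization, spike-in centring and without scaling. Their intensities summed to 895892 in *Pnpla1*+/+ and 838045 in *Pnpla1*-/- skin, a difference of 0.19 after scaling. *Krt14*, a basal keratin, had 53789 and 112502 and rose by 1.35. *Krt15*, a basal and follicular keratin, had 82002 and 21178 and fell by 1.67. Of 9 leukocyte markers with a difference, 4 rose and 0 fell, with a median of 0.84 and a summed intensity of 33360 and 40834, a difference of 0.57 after scaling. The brightest of them, *Csf1r*, the macrophage growth factor receptor, had 14484 and 18988, and *Mpo*, myeloperoxidase of neutrophils, had 32.3 and 541 and rose by 4.35. *Cd207*, the Langerhans cell lectin, was not well above background. Of 9 mast cell markers, 1 rose and 0 fell, with a median of −0.43, and *Cpa3*, a mast cell carboxypeptidase and the brightest, had 56546 and 32445, a difference of −0.52, while *Fcer1a*, the receptor for IgE, rose by 1.41. Of 10 endothelial markers, 1 rose and 0 fell, with a median of 0.33 that turned to −0.10 with spike-in centring. Their brightest, *Egfl7*, had 26513 and 26816, a difference of 0.30 that turned to −0.13 with spike-in centring, and *Vwf* rose by 1.35. None of 8 fibroblast markers was past 2-fold, with a median of −0.16, *Col1a2* as the brightest at −0.17 and *Dpt* as the largest at −0.91. None of 6 melanocyte markers was past 2-fold either, with a median of −0.35, *Dct* as the brightest at −0.38 and *Pmel* as the largest at −0.44. Of 6 Schwann cell markers, 1 rose, *Mbp*, by 1.34, while its other probes gave 1.39 and 0.30. The brightest Schwann cell marker, *Pmp22*, had −0.36, and the median of the list, 0.07, turned to −0.36 with spike-in centring.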

How the data were processed

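Cy3-labelled RNA of newborn skin, pooled from 6 animals per genotype, was measured on an Agilent 4x44K mouse array per pool, both on 1 slide. The tissue is called skin in the labels and epidermis in the design text. The authors processed the scans with Agilent Feature Extraction 11.5.1.1 (submitters' processing notes) and deposited an intensity per spot on a linear scale, background-subtracted and detrended but not scaled between arrays. The authors also deposited a table of ratios, found to be this intensity divided by an array-wide factor close to the 75th percentile (2109 in *Pnpla1*+/+, 1734 in *Pnpla1*-/-). Their global normalization names no statistic.

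Here log2 intensity minus log2 of the 75th percentile of spots other than controls was computed with Python 3.11.15, numpy 2.4.6 and pandas 2.3.3. Outlier-flagged spots (138 and 82) were left out, spots of a probe averaged, and the brightest probe taken per gene. Genes well above background in both pools (20680) have a difference. Of 1710 genes well above it in 1 pool only, 1694 have a bound, for which the dim value was replaced by the lowest signal counted as well above background, unless it was itself higher. Genes were called at 2-fold. No test was possible with 1 array per genotype, whose number limits the precision. The technical SD came from 309 probes with at least 8 spots. Coordinates are the scanner files' (mm9). Names and gene order came from RefSeq on GRCm38.p6 (27508 probes matched by accession, 3544 by symbol, 404 by older symbol, 7973 kept their name).

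Named are the 10 carbonic anhydrases, *Pnpla1*, of each of 7 pathway lists the 4 largest differences and the brightest gene, of each of 14 marker lists the brightest gene and the largest difference, measured neighbours within 3 places, and the 3 nearest differences. Markers at background, *Aqp5*, *Krt14*, and the X- and Y-linked genes beyond this rule, were added after their values were seen. The hair follicle markers *Hoxc13*, *Shh*, *Lef1*, *Krt25* and *Msx2*, also beyond this rule, were named because their calls changed with the processing. Some genes that the rule names are not reported here. The carbonic anhydrases and all lists were chosen with earlier results of these data known. Alternatives used limma 3.58.1 under R 4.3.3 (quantile, cyclic loess, normexp with offset 50), other scalings, the deposited ratios, all probes of a gene, other filters, flagged spots kept, and thresholds of 1.5 and 3. The computation was tested on simulated data. The slide could not enter a model.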

Additional observations from a re-analysis of the deposited data

How the results depend on the processing

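With 1 array per genotype, no alternative adds a replicate, and no replicate could be left out. No paired analysis was possible because each genotype has 1 array. Over 14 alternatives, 55 values of the main comparisons moved by less than their limit and 25 by more, with no change of sign for *Car6*, *Car13* or *Pnpla1*, and the cause was not tested. Of the values of single carbonic anhydrases and of list medians, 255 moved by less than their limit and 105 by more. *Car6* fell under each of them. The carbonic anhydrases that rose numbered 1 in the report, 4 at 1.5-fold, and 0 at 3-fold, without scaling and with spike-in centring. Their median was 0.25 with cyclic loess and with normexp, 0.22 without a filter on dim probes, 0.054 without scaling, 0.11 with quantile normalization and −0.10 with spike-in centring. *Pnpla1* was at −2.35 without scaling, −1.51 with normexp and −2.50 with spike-in centring. Among all genes, 3092 rose and 2092 fell at 1.5-fold, 684 and 228 at 3-fold, 3041 and about 1.1e+03 without a filter on dim probes, 998 and 1424 without scaling, 960 and 321 with normexp, and 827 and 2178 with spike-in centring. The share of rises among changed genes was 68.8%, and 41.2% without scaling, 27.5% with spike-in centring and 58.8% with quantile normalization. The median over all genes moved by −0.28 without scaling, by −0.44 with spike-in centring and by 0.10 without a filter. The 8 E1A spike-in probes, RNA added to each labelling, were on average 0.43 higher on the *Pnpla1*-/- array after scaling, so relative to this RNA each measured difference is lower by that amount. Intensities near 21.7 to 23.9, the lowest counted as well above background, limit what can be said of *Car8*.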
